A study of Mus musculus with 37 samples.

Results

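The genes described here are 10 NF-κB feedback genes and epithelial chemokines. They include the inhibitor genes Nfkbia and Tnfaip3, the gene Nfkbiz of the nuclear protein IκBζ, the subunit gene Relb and the ubiquitin ligase gene Birc3. The others are the cytokine gene Tnf, the chemokine genes Ccl20 and Cxcl16, and the surface protein genes Cd83 and Tnfrsf12a. All 10 were chosen by symbol, with earlier results of these data known. Each was found once in all 3 count tables, which list 27407, 20500 and 27547 genes. RNA was sequenced from mouse jejunal organoids, which are cultures grown from intestinal crypts, with or without vasoactive intestinal peptide (VIP), a transmitter of the enteric nervous system. In the first experiment, whole organoids from C57Bl/6 mice were cultured for 72 h without VIP (3 mice) or with 100 nM VIP (4 mice, of which mouse 4 had no untreated sample). In the second, Lgr5-EGFP+ cells were sorted from organoids of Lgr5-EGFP-IRES-CreERT2 reporter mice after 72 h with or without the same dose of VIP (4 mice). In the third, the same reporter line was used, organoids received 6 Gy of X-rays or none, and Lgr5-EGFP+ cells were sorted after 48 h with or without 100 nM VIP, giving 4 groups from 4 mice. The mice were 6 to 12 weeks old and of both sexes, each culture came from 1 mouse, and the cultures held epithelium without an added immune or stromal compartment. EGFP in the reporter mice is driven from the Lgr5 locus, so the sort selects cells by that promoter.

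NF-κB is a family of transcription factors held inactive in the cytoplasm by IκB proteins, and it enters the nucleus when a receptor such as that for TNF triggers the breakdown of the IκB proteins. Among its early targets are its own inhibitors, including Nfkbia (IκBα) and Tnfaip3 (the ubiquitin-editing enzyme A20), so that their transcripts serve as a readout of recent activity as well as a brake. In the intestinal epithelium the pathway is also known for chemokines that attract immune cells, such as Ccl20, the ligand of CCR6, and Cxcl16, the ligand of CXCR6, which is made as a membrane protein and can be shed.

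Counts are unique molecular identifiers (UMIs), and levels are given as UMIs of a gene scaled to 1e+06 UMIs in the sample (CPM). Samples held 3722716 to 6330404 UMIs in whole organoids, 575242 to 1104126 in the sorted cells without irradiation and 1075715 to 1876729 in the irradiation experiment, so low genes were measured best in whole organoids. All 6 pan-epithelial markers and all 6 stem cell markers had UMIs in every group. Lgr5 itself had 95 UMIs in the 4 untreated samples of the second experiment and 132 in the 4 untreated, non-irradiated samples of the third. Its mean level was 34.9 and 20.4 CPM in these, below the 77.5 CPM of untreated whole organoids, which come from another experiment and mouse strain. Enrichment of Lgr5 RNA by the sort was not tested. The sorted cells also carried Paneth and goblet cell markers, with summed levels of 3879 to 27162 CPM and 2460 to 9109 CPM over all sorted samples. The 7 T and B cell markers summed to at most 6.34 CPM in any sample, with Cd79a at 0 in every group, and the 7 stromal and endothelial markers to at most 3.20 CPM. The 7 myeloid markers summed to 4.77 to 32.9 CPM, most of it from Cd14, and Adgre1 was at 0 in every group.

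A single library of whole organoids stood apart. 5 of the 6 cultures with technical replicates had pairs of libraries in which 0.118 to 0.674% of genes differed by more than 2-fold. In VIP-treated mouse 3 it was 12.6%. Its first library had 75.2 CPM of Ccl20, 90.9 CPM of Cxcl16 and 130.3 CPM of Tnfrsf12a, and its second library had 5.72, 25.8 and 41.7 CPM. For Cd83 the order was opposite, with 5.41 CPM in the first and 14.3 CPM in the second. For these 4 genes the second library lay within or below the range of the untreated samples. Whether the label of this library is right was not tested, and the calls in whole organoids depended on which of the pair was kept. Technical replicates were summed, and the 4 members called in whole organoids are also given without either library.

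Promoters are shown for the members that passed the test in the most comparisons and have a RefSeq entry, since these are the sequences in which a κB match would be read beside the values below. Cxcl16 is named without one. Each window is written 5′ to 3′ on the gene's strand, from 250 bases before the annotated start to 50 bases after it, with matches to the κB consensus in capitals. Coordinates are those of GRCm38.p6, and the windows lie at chr1:83116516-83116815 on the plus strand (Ccl20), chr12:55492598-55492897 on the minus strand (Nfkbia) and chr17:23677400-23677699 on the minus strand (Tnfrsf12a).
Ccl20: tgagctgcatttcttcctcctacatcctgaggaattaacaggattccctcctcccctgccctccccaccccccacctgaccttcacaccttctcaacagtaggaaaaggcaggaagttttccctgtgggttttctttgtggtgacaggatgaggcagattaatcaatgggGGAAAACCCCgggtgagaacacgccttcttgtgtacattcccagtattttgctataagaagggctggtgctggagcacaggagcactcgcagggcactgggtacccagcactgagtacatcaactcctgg
Nfkbia: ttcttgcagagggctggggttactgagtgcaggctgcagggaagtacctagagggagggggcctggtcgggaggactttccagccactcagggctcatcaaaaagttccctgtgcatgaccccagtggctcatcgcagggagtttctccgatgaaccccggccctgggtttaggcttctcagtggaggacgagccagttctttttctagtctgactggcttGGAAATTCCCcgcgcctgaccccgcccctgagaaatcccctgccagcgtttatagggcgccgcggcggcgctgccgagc
Tnfrsf12a: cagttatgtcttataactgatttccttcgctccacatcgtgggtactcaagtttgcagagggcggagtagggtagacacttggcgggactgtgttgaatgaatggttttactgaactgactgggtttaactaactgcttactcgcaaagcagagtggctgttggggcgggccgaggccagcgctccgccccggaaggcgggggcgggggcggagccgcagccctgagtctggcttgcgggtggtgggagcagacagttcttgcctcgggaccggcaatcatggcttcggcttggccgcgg
The match in Ccl20, GGAAAACCCC, starts 80 bases before the annotated start, and that in Nfkbia, GGAAATTCCC, 29 bases before it. Both matches are on the strand opposite to the gene, so the capitals show the consensus in reverse complement. No match on either strand was found in the Tnfrsf12a window. Of all 32851 promoter windows of this length, 8.46% held the κB consensus on either strand. Of the 6 members with a window in the table, Tnfaip3 had 2 further matches and an AP-1 element (TGANTCA, found in 7.81% of all windows) in the window of its upstream start, and none held the cyclic AMP element TGACGTCA, which occurred in 1.79% of all windows. A match describes letters in the window and was not tested as a binding site.

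In whole organoids, VIP was followed by higher levels of Cxcl16, Ccl20 and Tnfrsf12a and a lower level of Cd83. The other members did not pass the test. All 10 members could be tested. By edgeR's quasi-likelihood test within mice, with a Benjamini-Hochberg adjusted p of 0.05 or less over 12727 genes, 3 members were higher and 1 was lower. Over all genes, 3.72% were higher and 1.1% lower by the same rule. The median log2 fold change was 0.49 over the 10 members and −0.00 over all genes. All 4 calls, like those of all other genes, were absent when the first library of VIP-treated mouse 3 was left out, where 0 genes passed in edgeR and 720 had an unadjusted p under 0.05, 1 of them a member. Without the second library, 6.46% of all genes were higher and 3.48% lower, and the same 4 members passed.

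The largest change was that of Cxcl16, which lies on chromosome 11 of GRCm38 from 70453983 to 70459984. Its level was 24.3, 24.5 and 27.4 CPM in untreated mice 1, 2 and 3, and 71.2, 83.5, 65.7 and 53.7 CPM in VIP-treated mice 1, 2, 3 and 4, from 102 to 523 UMIs per sample. Every VIP-treated sample was above every untreated one. The log2 fold change was 1.53 (SE 0.13, 95% interval 1.26 to 1.80, adjusted p = 6.77e-06 in edgeR, higher in 3 of 3 paired mice). It was 1.68 without the second library of VIP-treated mouse 3 (adjusted p = 6.67e-07 in edgeR) and 1.15 without the first (adjusted p = 0.616), and it passed in all 10 alternatives apart from the last.

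Ccl20, on chromosome 1 from 83116766 to 83119167, differed more between mice than with VIP. Untreated mice 1, 2 and 3 had 10.05, 10.2 and 33.3 CPM, and VIP-treated mice 1 to 4 had 18.7, 17.1, 48.3 and 10.96 CPM. The groups overlapped, but within each of the 3 paired mice the VIP-treated sample was higher. The log2 fold change within mice was 0.68 (SE 0.15, 95% interval 0.35 to 1.01, adjusted p = 0.0183 in edgeR). Without the mouse term it was 0.44 with an adjusted p of 0.9746. With DESeq2 the adjusted p was 0.212, without mouse 1 it was 0.182, without mouse 2 it was 0.0699, and without the first library of VIP-treated mouse 3 the log2 fold change was −0.09 (adjusted p = 0.986 in edgeR). Without the second library it was 0.98 (adjusted p = 0.000682).

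Tnfrsf12a encodes the receptor of the cytokine TWEAK, which signals to both arms of the NF-κB pathway. Untreated samples had 53.7, 48.4 and 73.6 CPM and VIP-treated samples 93.1, 81.1, 96.0 and 67.2 CPM, in the order of the mice. The unpaired VIP-treated mouse 4 lay below untreated mouse 3, and the other VIP-treated samples lay above all untreated ones. The log2 fold change was 0.63 (SE 0.12, 95% interval 0.38 to 0.88, adjusted p = 0.00511 in edgeR, higher in 3 of 3 mice). The call was lost without mouse 1 (0.54, adjusted p = 0.0708), without the mouse term (0.52, adjusted p = 0.460) and without the first library of VIP-treated mouse 3 (0.27, adjusted p = 0.947). Without the second library the value was 0.79 (adjusted p = 7.26e-05).

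Cd83, which encodes an immunoglobulin-type membrane protein used as a marker of mature dendritic cells, was the member that fell. Its levels were 14.7, 11.02 and 11.01 CPM in untreated mice 1, 2 and 3 and 7.23, 5.43 and 8.85 CPM in the same mice with VIP. The unpaired VIP-treated mouse 4 had 13.5 CPM, inside the untreated range, so the groups overlapped. Within mice the log2 fold change was −0.79 (SE 0.21, 95% interval −1.24 to −0.35, adjusted p = 0.0433 in edgeR, lower in 3 of 3 mice). It lost the call with DESeq2 (adjusted p = 0.465), without the mouse term (−0.50, adjusted p = 0.773), without mouse 1 (adjusted p = 0.391), without mouse 2 (adjusted p = 0.217) and without the first library of VIP-treated mouse 3 (−0.61, adjusted p = 0.929). Without the second library it was −1.02 (adjusted p = 0.00444 in edgeR). The myeloid markers summed to 14.1 to 19.1 CPM in untreated and 15.5 to 22.5 CPM in VIP-treated samples, and 0 of the 3 that could be tested passed. Most of the sum was Cd14, with means of 11.3 and 14.0 CPM. The part of dendritic cells in the Cd83 values was not tested.

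The feedback inhibitors did not pass. Nfkbia, on chromosome 12 from 55489410 to 55492647, had 147.1, 154.5 and 212.2 CPM in untreated mice and 165.0, 164.1, 178.3 and 156.5 CPM with VIP. The log2 fold change was −0.01 with a 95% interval of −0.24 to 0.22 (adjusted p = 0.988 in edgeR), higher in 2 of 3 mice, and it took the opposite sign without the second library of VIP-treated mouse 3 (0.06). Relb, the subunit of the non-canonical arm, had 47.1, 62.9 and 45.1 CPM without VIP and 48.3, 60.5, 51.5 and 57.0 CPM with it, and a log2 fold change of 0.05 with an interval of −0.18 to 0.27 (adjusted p = 0.883 in edgeR). 

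The remaining members had positive values with an unadjusted p under 0.05 that did not pass over all genes, apart from Tnf. Of all 12727 genes, 2090 had an unadjusted p under 0.05. Tnfaip3 had 1.21, 4.69 and 3.49 CPM in untreated mice and 3.88, 7.50, 3.95 and 5.66 CPM with VIP, from 7 to 47 UMIs per sample. It was higher in 3 of 3 mice, with a within-mouse log2 difference of 0.75 (SE 0.32, edgeR adjusted p = 0.256), and it passed when mouse 3 was left out (1.001, adjusted p = 0.0355). Nfkbiz, which encodes the nuclear protein IκBζ, had 15.2, 14.1 and 14.2 CPM without and 16.9, 18.5, 20.7 and 14.1 CPM with VIP. Its log2 fold change was 0.35 (SE 0.16, adjusted p = 0.287 by edgeR). Birc3, the ubiquitin ligase cIAP2 of the TNF receptor complex, had 17.0, 19.2 and 16.7 CPM without and 25.04, 21.9, 19.6 and 17.5 CPM with VIP, and its log2 fold change was 0.33 (SE 0.15, adjusted p = 0.301 by edgeR). Both were higher in 3 of 3 mice, and in both the groups overlapped. Tnf itself was near the lower end of what could be counted, with 3, 14 and 5 UMIs in untreated mice and 22, 11, 16 and 12 UMIs with VIP. Its log2 fold change of 0.81 had an interval of −0.32 to 1.95 (adjusted p = 0.505 in edgeR), and was higher in 2 of 3 mice. It was −0.02 without mouse 1 and 1.87 without mouse 2 (interval 0.65 to 3.09, adjusted p = 0.107 in edgeR).

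**Figure D1:**
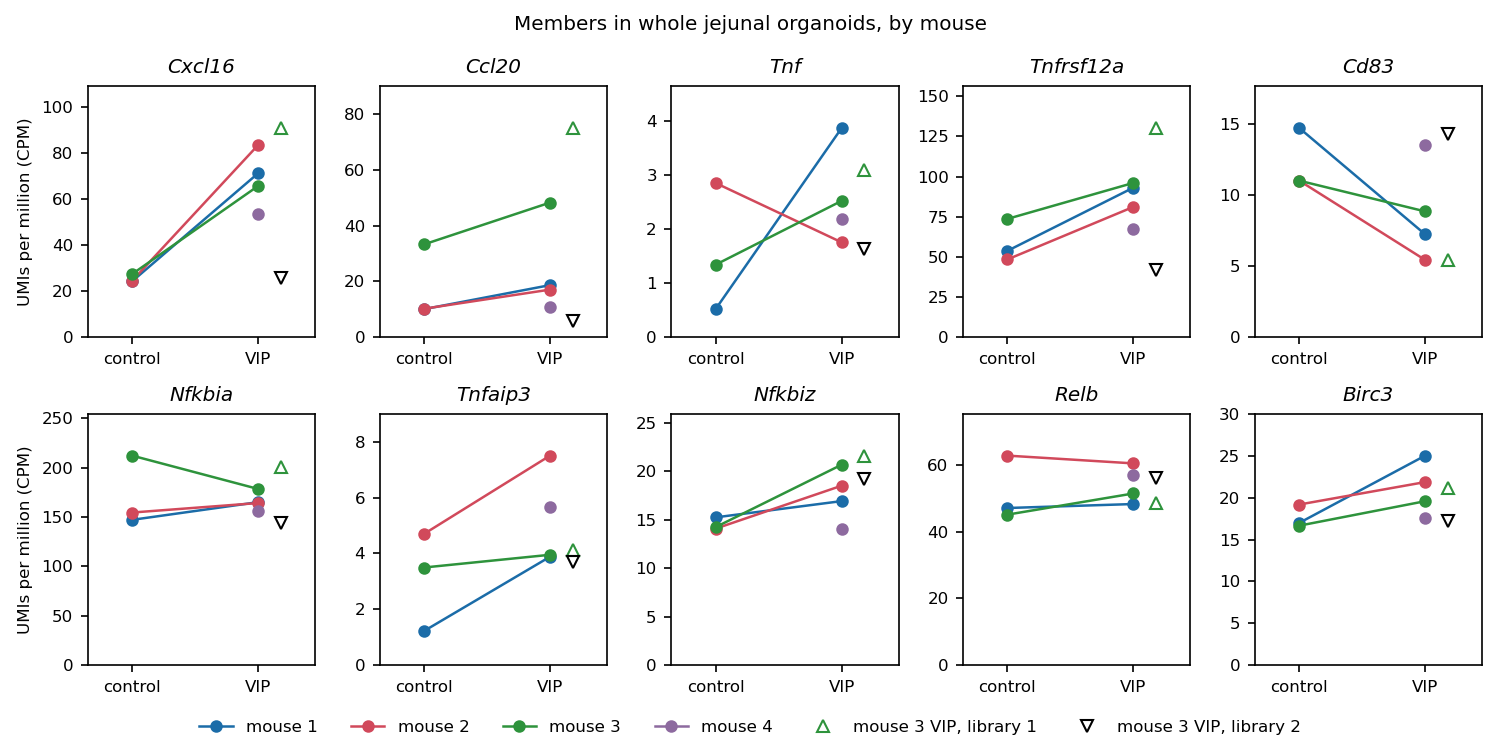
Level of each member in whole organoids, as CPM on linear axes that start at 0. Filled points are cultures, with lines joining the untreated and VIP-treated culture of a mouse (mouse 4 has no untreated culture), and open triangles are the technical replicate libraries of VIP-treated mouse 3. Cxcl16 is at 24.3 to 27.4 CPM in untreated and 53.7 to 83.5 CPM in VIP-treated cultures, while the second library of mouse 3 has 25.8 CPM.

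Markers of some cell types moved in the same comparison. The 6 goblet cell markers summed to 4993 to 6088 CPM in untreated and 7107 to 8509 CPM in VIP-treated whole organoids, with 5 of 6 called higher, and the pan-epithelial markers to 5302 to 6130 and 6899 to 7749 CPM, with 4 of 6 called higher. Of the 6 Paneth, 6 stem and 4 tuft cell markers tested, 0 were called. Of 6 enteroendocrine markers 1 was called higher, and of 7 enterocyte markers 2 were called higher and 1 lower. In the first library of VIP-treated mouse 3 the goblet markers summed to 8789 CPM and in the second to 6158 CPM, while the enterocyte markers summed to 8791 and 13073 CPM. In these bulk samples a change in the share of a cell type and a change of RNA per cell cannot be told apart, and the part of these markers in the members' values was not tested. The 6 markers of M cells, which belong to the epithelium over lymphoid follicles where Ccl20 is known to be made, summed to 48.2 to 76.3 CPM in untreated and 64.5 to 86.1 CPM in VIP-treated samples, with the defining markers Gp2 and Sox8 at 0 in both groups. Of the 4 that could be tested 1 was called higher, Tnfrsf11b, the decoy receptor of RANKL, with 1.85 ± 0.599 CPM (SD, n = 3) in untreated and 4.28 ± 0.759 CPM (SD, n = 4) in VIP-treated samples, which is named because it completed the count. Most of the summed level was Ccl9, with means of 52.9 CPM in untreated and 65.3 CPM in VIP-treated samples. Tnfaip2 went from 3.04 to 5.23 CPM, and Spib went the other way, from 2.48 to 1.37 CPM. The part of the M cell markers in the Ccl20 values was not tested. T and B cell markers summed to at most 4.41 CPM there.

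A further 120 genes of the pathway were grouped as subunits, inhibitors and feedback genes, kinases and adaptors, receptors, ligands, chemokines, sheddases and other target genes. Of these, 79 could be tested in whole organoids, where 6 were higher and 1 was lower. Over all genes, 3.72% were higher and 1.1% lower. The median log2 fold change over the 79 was 0.09. The 4 other subunit genes, 11 other inhibitor and feedback genes, 21 kinases and adaptors and 4 sheddases that were tested had 0 calls. The sheddases include enzymes that can release Cxcl16 from the membrane. Over all genes, 614 of 12727 passed in edgeR. Il1rn, the antagonist of the IL-1 receptor, went from 14.3 ± 2.75 CPM (SD, n = 3) to 80.2 ± 19.3 CPM (SD, n = 4), a log2 fold change of 2.59 (adjusted p = 9.79e-08 in edgeR). Il33, an alarmin of the IL-1 family, went from 2.73 ± 0.799 CPM (SD, n = 3) to 26.2 ± 21.7 CPM (SD, n = 4). Its VIP-treated samples ran from 7.85 to 57.7 CPM (log2 fold change 3.31, adjusted p = 1.70e-05 in edgeR). Duoxa2 (1.80) and Duox2 (1.38), which form an epithelial hydrogen peroxide source, Ier3 (0.90), an early response gene, and Gadd45b (0.64), named because it completed the count, were the other genes that rose. The epithelial chemokine gene Ccl25 fell by 0.37 on the log2 scale (adjusted p = 0.0200 in edgeR), from 605.6 ± 35.3 CPM (SD, n = 3) to 475.3 ± 26.7 CPM (SD, n = 4). None of these 7 calls remained without the first library of VIP-treated mouse 3, where 0 of all genes passed. Without the second library 15 of 79 tested pathway genes passed, where 1261 of all 12684 genes passed in edgeR. The count was 4 with DESeq2, 3 without the mouse term, 4 without mouse 1 and 20 without mouse 3. Over all genes, 296 passed with DESeq2, 99 without the mouse term, 377 without mouse 1 and 1668 without mouse 3.

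In Lgr5-EGFP+ cells sorted without irradiation, only Nfkbia, Relb and Tnfrsf12a had enough UMIs for the test, and 0 of the 3 passed in edgeR, 0 had an unadjusted p under 0.05, and 0 of 10 passed in DESeq2. Over all genes, 0.0885% passed in edgeR. Nfkbia had 54.0, 89.1, 65.8 and 122.4 CPM in untreated mice 1 to 4 and 56.2, 99.1, 64.7 and 61.8 CPM with VIP, a log2 fold change of −0.24 with a 95% interval of −0.65 to 0.18 (adjusted p = 0.948 in edgeR). Its untreated mouse 4 was high, and without that mouse the value was 0.05. Tnfrsf12a had 57.4, 59.0, 49.3 and 49.3 CPM without VIP and 54.3, 46.9, 46.0 and 42.8 CPM with it, lower in 4 of 4 mice, with a log2 fold change of −0.20 and an interval of −0.64 to 0.23 (adjusted p = 0.951 in edgeR). Relb had 8 to 27 UMIs per untreated and 7 to 25 per VIP-treated sample and a log2 fold change of 0.12 with an interval of −0.58 to 0.82.

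The other members of that experiment are given as UMIs, since they fell under the filter on low counts. Cxcl16 had 1, 3, 5 and 4 UMIs in untreated mice 1 to 4 and 13, 2, 3 and 6 with VIP. Ccl20 had 0, 2, 2 and 1 UMIs in untreated samples and 11, 2, 4 and 3 in VIP-treated ones. Cd83 had 8, 9, 13 and 5 UMIs without VIP and 6, 3, 3 and 3 with it. The Ccl20 counts were higher or equal with VIP in each mouse and the Cd83 counts lower in each mouse, while the Cxcl16 counts went both ways. These counts are not scaled, and the samples held 575242 to 1104126 UMIs, so sizes of change cannot be read from them. As CPM, Ccl20 was higher and Cd83 lower with VIP in each mouse, and Cxcl16 went both ways. Nfkbiz had 4 to 12 UMIs per untreated and 3 to 14 per VIP-treated sample, Birc3 3 to 11 and 3 to 15. Tnf had 0 to 3 UMIs and Tnfaip3 0 to 2 in any sample. In an edgeR fit that kept all genes with any count, 2 members had an unadjusted p under 0.05 and 0 of 10 passed. Of all 20500 genes, 667 had such a p. The 2 members were Cd83, with a log2 fold change of −1.34 (95% interval −2.28 to −0.41, adjusted p = 0.997), and Ccl20, with 1.63 (95% interval 0.09 to 3.18, adjusted p = 0.997 in edgeR).

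Whether VIP acted differently in the whole organoids and in the sorted cells was tested as an interaction within mice over both experiments, which also differ in mouse strain, so that compartment and experiment cannot be told apart. Of 8 members tested, 0 passed in edgeR, 1 had an unadjusted p under 0.05, and 0 of the 4 to which DESeq2 gave an adjusted p passed there. Over all 10186 genes 0.147% passed in edgeR, and 636 had an unadjusted p under 0.05. The 1 member with such a p was Tnfrsf12a, whose log2 fold change was higher by 0.83 in whole organoids (SE 0.23, 95% interval 0.35 to 1.31, adjusted p = 0.305 in edgeR). Without the second library of VIP-treated mouse 3 the difference was 0.99 and passed (adjusted p = 0.0280), and without the first it was 0.48 (adjusted p = 0.9997 in edgeR). For Cxcl16 the difference was 0.91 with an interval of −0.33 to 2.15 (adjusted p = 0.892), and for Ccl20 −1.04 with an interval of −2.59 to 0.50 (adjusted p = 0.893 in edgeR), which the few UMIs of the sorted cells left wide.

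In the irradiation experiment, VIP alone was followed by no call among the members. Of the 8 members tested, 0 passed in edgeR in non-irradiated cells, where 0.742% of all genes passed in edgeR. An unadjusted p under 0.05 was found for 2 of the 8 members and for 1237 of all 9976 genes. DESeq2 gave an adjusted p to only 2 members there, Nfkbia (0.208) and Tnfrsf12a (0.629). In irradiated cells 0 members passed with either tool and 0 had an unadjusted p under 0.05, where 0.221% of all genes passed in edgeR. Tnf had 1 to 11 UMIs and Tnfaip3 0 to 9 UMIs per sample and were not tested. The 2 members with a small unadjusted p in non-irradiated cells were Cxcl16 and Nfkbia. Cxcl16 had 9.42, 16.04, 11.1 and 11.8 CPM in untreated mice 1 to 4 and 21.8, 23.1, 14.7 and 14.6 CPM with VIP, higher in 4 of 4 mice with overlap between the groups (log2 fold change 0.58, 95% interval 0.09 to 1.08, adjusted p = 0.310 in edgeR). Nfkbia had 140.1, 148.0, 161.2 and 137.0 CPM without VIP and 122.4, 123.9, 116.4 and 126.7 CPM with it. It was lower in 4 of 4 mice without overlap between the groups, with a log2 fold change of −0.27 (95% interval −0.45 to −0.09, adjusted p = 0.160 in edgeR). The other 6 tested members had log2 fold changes of −0.39 (Ccl20) to 0.15 (Birc3).

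In irradiated cells the VIP effects of Cxcl16 and Nfkbia were smaller in size. Cxcl16 had 24.1, 23.8, 23.2 and 34.8 CPM in irradiated untreated mice 1 to 4 and 32.0, 23.2, 28.8 and 33.9 CPM in irradiated VIP-treated ones, a log2 fold change of 0.18 with an interval of −0.23 to 0.58 (adjusted p = 0.9749 in edgeR). For Nfkbia the value was −0.04 with an interval of −0.21 to 0.14 (adjusted p = 0.988 in edgeR). Relb was higher with VIP in 4 of 4 mice, 35.3, 24.4, 40.0 and 39.2 CPM against 35.7, 39.2, 43.0 and 51.2 CPM. Its log2 fold change was 0.28 (interval −0.03 to 0.58, adjusted p = 0.908 in edgeR). Birc3 was lower in 4 of 4 mice, 17, 15, 11 and 12 UMIs against 17, 6, 7 and 16 UMIs in libraries of unequal size (log2 fold change −0.57, interval −1.23 to 0.08, adjusted p = 0.931 in edgeR). The difference between the VIP effects with and without irradiation passed for 0 of 8 members, as for 0% of all genes in edgeR, where 634 genes and 0 members had an unadjusted p under 0.05. DESeq2 passed 3 genes, 0 of them members. For Cxcl16 the difference was −0.41 with an interval of −1.05 to 0.23, and for Nfkbia 0.23 with an interval of −0.02 to 0.49.

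Irradiation itself was followed by higher Cxcl16 and Tnfrsf12a. In untreated cells 2 of the 8 tested members were higher and 0 lower, where 2.87% of all genes were higher and 1.59% lower. In VIP-treated cells 3 were higher, the same 2 and Nfkbia, and 0 lower, where 4.32% of all genes were higher and 3.46% lower. The 2 comparisons use different samples of the same 4 mice.

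Cxcl16 went from a mean of 12.1 ± 2.81 CPM (SD, n = 4) in untreated cells without irradiation to 26.5 ± 5.52 CPM (SD, n = 4) after 6 Gy, from 79 and 148 UMIs in all. It rose in 4 of 4 mice, and the lowest irradiated sample (23.2 CPM) lay above the highest non-irradiated one (16.04 CPM). The log2 fold change was 1.10 (SE 0.23, 95% interval 0.63 to 1.57, adjusted p = 0.00376 in edgeR), and without mouse 4, whose irradiated sample was the highest at 34.8 CPM, it was 0.94 with an adjusted p of 0.0642. In VIP-treated cells the means were 18.6 ± 4.53 and 29.5 ± 4.70 CPM (SD, n = 4 each), again without overlap, by a narrow margin between 23.1 CPM in the highest non-irradiated and 23.2 CPM in the lowest irradiated sample. The log2 fold change was 0.70 (SE 0.21, 95% interval 0.27 to 1.12, adjusted p = 0.0362 in edgeR, higher in 4 of 4 mice). This call was lost with DESeq2 (adjusted p = 0.169) and without mouse 1 (0.0601), mouse 3 (0.178) or mouse 4 (0.249). Ordered by mean, the 4 groups ran from untreated through VIP-treated and irradiated to irradiated with VIP. The first and last steps of this order are the VIP effects given above, which did not pass, and the middle step, which changes both conditions, was not tested.

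Tnfrsf12a had 112.4, 102.4, 96.2 and 96.3 CPM in untreated mice 1 to 4 without irradiation and 134.1, 143.5, 110.6 and 136.3 CPM after it. It rose in 4 of 4 mice with a slight overlap, since irradiated mouse 3 lay below non-irradiated mouse 1 (log2 fold change 0.38, SE 0.10, adjusted p = 0.0226 in edgeR). In VIP-treated cells the levels were 80.4, 99.2, 97.2 and 90.1 CPM without and 127.9, 114.3, 129.4 and 140.1 CPM with irradiation, with no overlap (log2 fold change 0.48, SE 0.10, 95% interval 0.27 to 0.68, adjusted p = 0.00260 in edgeR, higher in 4 of 4 mice). The call in untreated cells was lost with DESeq2 (adjusted p = 0.0962), with all genes kept (0.0571) and without mouse 2 (0.125), mouse 3 (0.0528) or mouse 4 (0.217). That in VIP-treated cells was lost without mouse 4 (0.0531).

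Nfkbia rose with irradiation in VIP-treated cells, from 122.4, 123.9, 116.4 and 126.7 CPM to 148.7, 156.6, 138.9 and 171.3 CPM in mice 1 to 4. Every irradiated sample was above every non-irradiated one, and the log2 fold change was 0.32 (SE 0.09, 95% interval 0.14 to 0.50, adjusted p = 0.0201 in edgeR). In untreated cells the levels after irradiation were 165.3, 157.9, 154.3 and 142.6 CPM, overlapping those before it, with a log2 fold change of 0.09 and an interval of −0.09 to 0.27 (adjusted p = 0.683 in edgeR). The difference between the irradiation effects is the interaction given above, which did not pass. The call in VIP-treated cells was lost with DESeq2 (adjusted p = 0.0956), with all genes kept (0.0625) and without mouse 2 (0.0828) or mouse 4 (0.152).

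The other tested members did not pass for irradiation. Relb had 49.0, 37.6, 45.6 and 47.8 CPM in untreated mice without irradiation and was lower in 4 of 4 mice after it (log2 fold change −0.39, SE 0.15, 95% interval −0.69 to −0.09, adjusted p = 0.147 in edgeR). In VIP-treated cells the value was −0.18 (adjusted p = 0.491 in edgeR). Birc3 was lower after irradiation in 4 of 4 VIP-treated mice, on 6 to 17 UMIs per sample (log2 fold change −0.40, interval −1.06 to 0.26, adjusted p = 0.515 in edgeR), and higher in 2 of 4 untreated mice. Ccl20 had 30, 41, 58 and 31 UMIs in untreated cells and 34, 29, 30 and 26 after irradiation, with a log2 fold change of −0.15 and an interval of −0.64 to 0.33. Cd83 (−0.07) and Nfkbiz (0.30) also had intervals that held 0 in untreated cells.

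**Figure D2:**
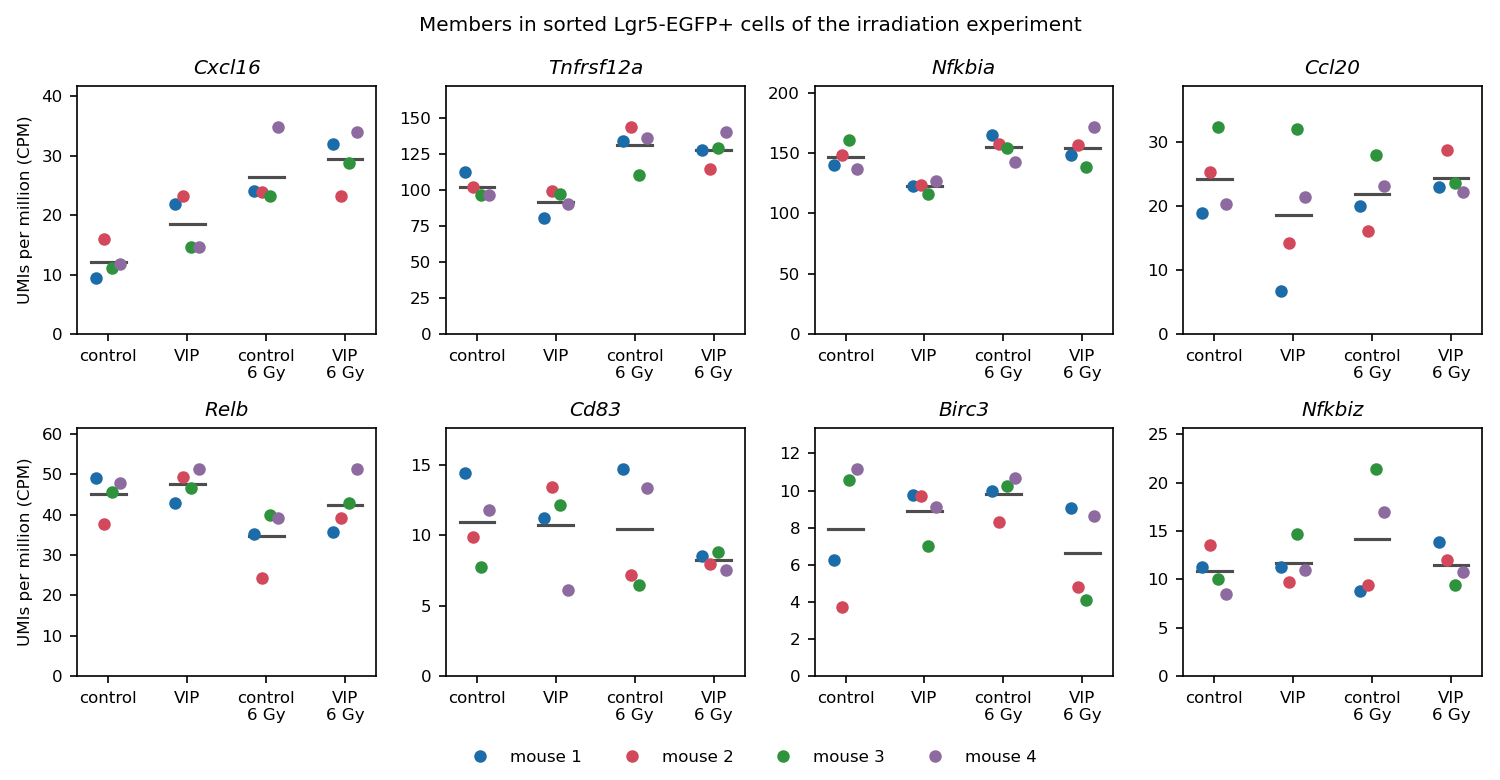
Levels of the 8 tested members in Lgr5-EGFP+ cells of the irradiation experiment, as CPM on linear axes that start at 0. Points are the 4 mice of each group and bars are group means, and Cxcl16 runs from a mean of 12.1 CPM in untreated cells to 29.5 CPM in irradiated VIP-treated cells while Cd83, Birc3 and Nfkbiz overlap between all groups.

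Markers of several cell types moved with irradiation as well. All 6 Paneth cell markers were called higher in both comparisons, with sums of 9889 to 14679 CPM before and 14773 to 27162 CPM after irradiation in untreated cells. Goblet markers were called higher for 5 of 6 in untreated and 3 of 6 in VIP-treated cells, and enteroendocrine markers for 3 of 6 and 6 of 6. Of 7 enterocyte markers 3 were called higher in untreated cells (median log2 fold change 0.94 over the 7) and 1 in VIP-treated cells (median 0.67), and all 7 values were positive in both. Pan-epithelial markers were called higher for 2 of 6 in untreated and 3 of 6 in VIP-treated cells, where 1 of 6 was called lower. Stem cell markers summed to 3341 to 4341 CPM before and 2411 to 2756 CPM after irradiation in untreated cells, with 2 of 6 called lower. The part of these shifts in the values of Cxcl16, Tnfrsf12a and Nfkbia was not tested. T and B cell markers summed to at most 5.02 CPM in the 16 samples, and the myeloid sums of 16.4 to 32.7 CPM without and 17.8 to 27.1 CPM with irradiation overlapped in untreated cells.

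Of the other pathway genes, 61 could be tested in the irradiation experiment. In untreated cells 2 rose with irradiation and 0 fell, where 2.87% of all genes were higher and 1.59% lower. The 2 pathway genes were Icam1, an adhesion molecule for leukocytes, from 11.9 to 27.9 CPM on average (1.26 on the log2 scale, edgeR adjusted p = 0.00224), and Il1rn, from 10.4 to 26.5 CPM (1.38, adjusted p = 0.000503 in edgeR). In VIP-treated cells 4 rose, Icam1 (1.16), Il1rn (1.71), the death receptor gene Fas (1.02) and the adaptor gene Myd88 (0.43), and the kinase gene Irak1 fell by 0.42 on the log2 scale, with adjusted p-values in edgeR of 9.09e-06 (Il1rn) to 0.0488 (Myd88). Over all genes, 4.32% were higher and 3.46% lower with irradiation in VIP-treated cells. In untreated cells the count of 2 was 1 (Il1rn) without mouse 3 and 4 without mouse 1. Over all genes, 445 passed there, 212 without mouse 3 and 643 without mouse 1. In VIP-treated cells the count of 5 was 2 with DESeq2 (Icam1 and Il1rn), 3 without mouse 1, 2 without mouse 3 and 1 (Il1rn) without mouse 4. Over all genes, 776 passed there, 455 with DESeq2, 691 without mouse 1, 542 without mouse 3 and 426 without mouse 4. With VIP, 0 of the 61 passed in edgeR, where 4 had an unadjusted edgeR p under 0.05 in non-irradiated and 3 in irradiated cells. Of all 9976 genes, 1237 and 574 had such a p. DESeq2 gave an adjusted p to 5 of the 120 genes in non-irradiated and 105 in irradiated cells, of which 0 passed. In the sorted cells of the second experiment 0 of 27 passed in edgeR, 0 had an unadjusted p under 0.05, and 0 of 95 passed in DESeq2. Medians over these genes lay between −0.06 and 0.07 in the irradiation experiment.

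**Figure D3:**
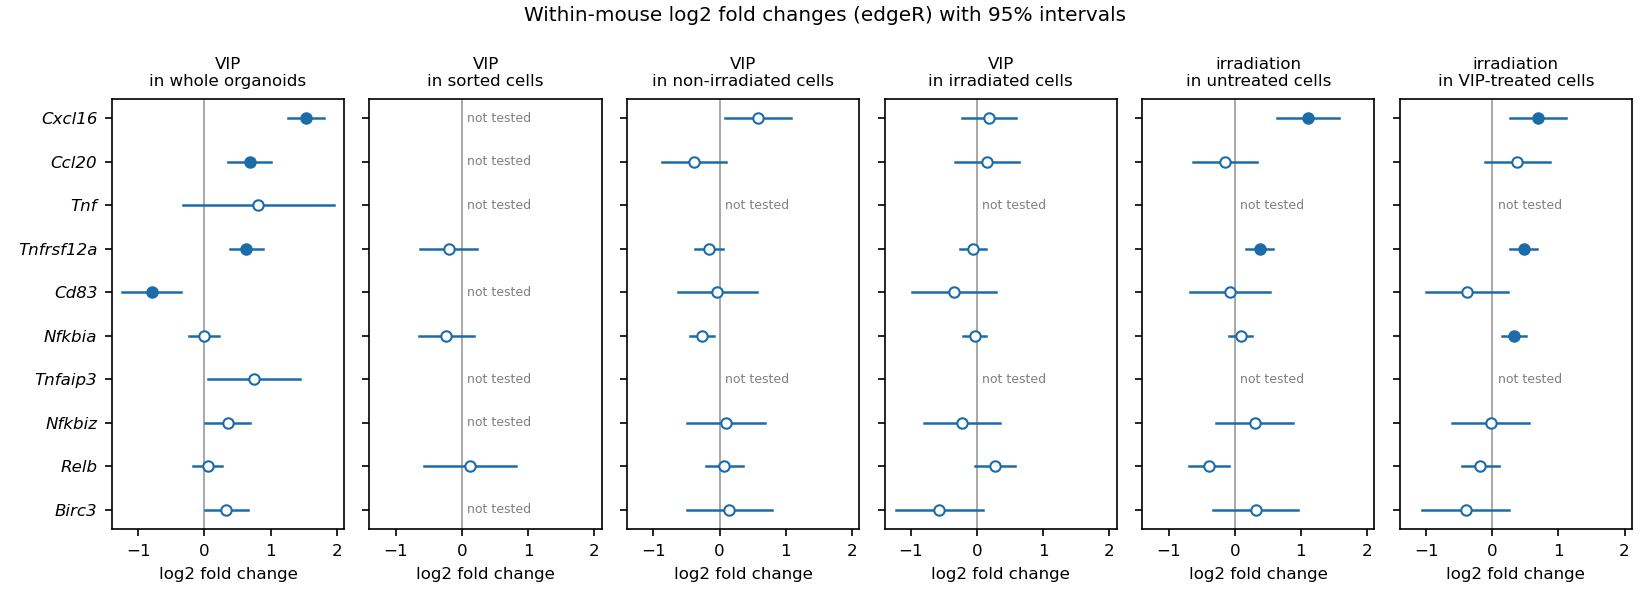
Log2 fold change of each member within mice in the 6 comparisons, from edgeR's quasi-likelihood test. Points are estimates, lines are 95% intervals, and filled points have an adjusted p of 0.05 or less over all genes. In whole organoids 4 members are filled, in the VIP comparisons of sorted cells none, and with irradiation Cxcl16 and Tnfrsf12a in both settings and Nfkbia in VIP-treated cells.

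The genes whose levels followed the members most closely were looked up over the 16 samples of the irradiation experiment, after the mean of each mouse was removed. For Cxcl16 the highest Pearson correlations among 9975 other genes were with Cd63 (0.95), Lamp1 (0.94) and Anxa2 (0.93), and for Tnfrsf12a with Bax (0.96), Rbms1 (0.95) and Mgmt (0.95). Nfkbia was nearest to Dda1 (0.89), Relb to Plpp3 (0.90) and Ccl20 to Cox7a2 (0.96). The highest values for Nfkbiz (0.84), Cd83 (0.81) and Birc3 (0.80), which had the fewest UMIs, were lower. Among the members, Cxcl16 and Tnfrsf12a had a correlation of 0.63, Nfkbia and Tnfrsf12a of 0.66, and Relb and Tnfrsf12a of −0.61, while Ccl20 and Cxcl16 had −0.09. The 16 points share 4 groups, so genes that differ between groups in the same way have high values, and the values describe these samples only.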

How the data were processed

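Per the labels and the methods of the study, poly(A) RNA was reverse transcribed with oligo-dT primers that carry a sample barcode and a UMI, sequenced on a NextSeq 500 and counted by the authors with the Drop-seq pipeline on GRCm38 with a GENCODE annotation. The files deposited by the authors hold whole-number UMI counts that were not normalized, with 1 column for each library. No column lacked a sample and no row lacked a gene name. The 37 libraries were summed to 31 samples of 12 mice. The VIP dose, the culture times and the ages of the mice come from the methods of the study.

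Genes were fitted with edgeR 4.0.16 in R 4.3.3 (TMM factors, filterByExpr by group, quasi-likelihood test with a mouse term) and p-values were adjusted by Benjamini-Hochberg over all genes tested, with a threshold of 0.05. Members under the filter are given as UMI counts without a p. Mouse numbers pair samples of the same animal. The correlation across genes of deviations from the group mean was 0.27 to 0.63 within mice and −0.54 to 0.33 between mice in whole organoids, and −0.03 to 0.21 within mice in the sorted cells. The alternatives were DESeq2 1.42.0 (Wald test), RLE factors, no filter on low counts, no replicate block, leaving out each mouse, the first technical replicate library only and, for VIP-treated mouse 3, leaving out either library. Leaving out the first library was added after the values were seen. The fits were tested on simulated data. The members, the pathway and marker lists and the choice of the second library were made with earlier results of these data known. All members are described, and of the lists the up to 3 called genes with the smallest p. Positions are from GENCODE M21 on GRCm38, promoters from RefSeq on GRCm38.p6. Low UMI counts limit the precision of single samples.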

Additional observations from a re-analysis of the deposited data

Results flagged for a closer look

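Among the members' groups of 4 samples, 70 were checked for a sample far from the others, and 1 was found. By chance about 1 in 20 of the groups checked would be flagged, so 1 of 70 is not above chance. Cxcl16 in irradiated untreated cells had 34.8 CPM in mouse 4 (39 UMIs), and the other 3 mice had 23.2 to 24.1 CPM. Without mouse 4 the irradiation effect on Cxcl16 in untreated cells was 0.94 on the log2 scale, with an adjusted p of 0.0642 in edgeR.

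The VIP effect on Tnfrsf12a differed between whole organoids and sorted cells by 0.99 on the log2 scale when the second library of VIP-treated mouse 3 was left out (adjusted p = 0.0280 in edgeR's interaction test). With both libraries the difference was 0.83 (adjusted p = 0.305), and without the first library it was 0.48 (adjusted p = 0.9997). The level in whole organoids was higher with VIP in 3 of 3 paired mice, and in sorted cells it was lower in 4 of 4 mice.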

How the results depend on the processing

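Over 531 recomputed fold changes of 61 results, 472 kept their direction and their side of the threshold, 28 lost a call, 3 gained one and 28 changed sign. The cause was not tested. A further 10 values had no adjusted p in DESeq2 and were not counted. In whole organoids 4 members passed, 2 with DESeq2 (Cxcl16 and Tnfrsf12a), 1 without the replicate block (Cxcl16, 1.43), 0 without the first library of VIP-treated mouse 3, and 1 to 5 when a mouse was left out. Over all genes, 614 passed, 296 with DESeq2, 99 without the replicate block and 0 without that library. With a mouse left out 363 to 1668 genes passed, most without mouse 3, where the 5 members passed. For irradiation in untreated cells 2 members passed, 1 with DESeq2, 1 with all genes kept and 0 to 2 with a mouse left out. Over all genes, these counts were 445, 268, 567 and 176 to 643. For irradiation in VIP-treated cells 3 passed, 1 with DESeq2, 2 with all genes kept and 0 to 2 with a mouse left out. Over all genes, the counts there were 776, 455, 872 and 426 to 691. For the difference between compartments 0 passed, and 1 (Tnfrsf12a) with the first technical library only or without the second library of VIP-treated mouse 3. Over all genes, 15 passed for this difference, and 28 and 27 in these 2 alternatives. Fits without the replicate block of mouse numbers left the counts for irradiation at 2 and 3, where 322 and 642 of all genes passed.

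With VIP in whole organoids, Ccl20 changed sign without the first library of VIP-treated mouse 3 (−0.092). Nfkbia was 0.00084 with all genes kept, 0.0053 with first libraries only and 0.060 without the second library, and Relb was −0.022 with first libraries only. With each mouse left out, the log2 fold changes that changed sign ran as follows. In whole organoids Nfkbia ran from −0.10 to 0.15 and Tnf from −0.023 to 1.87. With VIP in sorted cells Nfkbia ran from −0.41 to 0.051 and Relb from −0.18 to 0.55. With VIP in non-irradiated cells Birc3 ran from −0.14 to 0.45, Cd83 from −0.25 to 0.23, Nfkbiz from −0.074 to 0.30 and Relb from −0.027 to 0.15. With VIP in irradiated cells Ccl20 ran from −0.076 to 0.30, Nfkbia from −0.12 to 0.014, Nfkbiz from −0.54 to 0.11 and Tnfrsf12a from −0.12 to 0.024. With irradiation in untreated cells Ccl20 ran from −0.26 to 0.030 and Cd83 from −0.15 to 0.071, and in VIP-treated cells Nfkbiz from −0.15 to 0.20. The interaction of VIP and irradiation ran from −0.71 to 0.18 for Nfkbiz, and the difference between compartments from −0.082 to 0.41 for Nfkbia and from −0.44 to 0.22 for Relb. Depth limited the sorted cells most, where 7 of 10 members were under the filter.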
